A study of Mus musculus with 36 samples.

Results

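The comparison described here sets 3 mg/kg MIR29B against 2 mg/kg MIR29B at week 2. Its members are the 6 libraries whose titles give week 2, MIR29B and either dose, 3 at 3 mg/kg and 3 at 2 mg/kg, out of 36 libraries in the series. All 36 came from blood of the strain labelled Townes sickle cell mice, in which human globin genes stand in place of the adult mouse ones. Per the labels, all mice carried this sickle cell background, the MIR29B animals are listed with a genotype of MIR29B overexpression, and MIR29B or a scrambled control was delivered by mini-osmotic pump at 2 or 3 mg/kg with blood collected at weeks 0, 2 and 4. The age and the number of animals behind each library are not given in the sources used here, so p-values measure the spread between libraries. In the main fit that spread was taken over the 12 groups of all 36 libraries. The 3 mg/kg scrambled and 2 mg/kg scrambled groups at week 2, with 3 libraries each, and the MIR29B arm at week 0, with 3 libraries at each dose, serve as comparisons below. Globin levels are also given for the MIR29B arm at week 4, with 3 libraries at each dose.

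MicroRNAs lower the output of messenger RNAs by pairing, mainly through bases 2 to 8 of the microRNA (the seed), with sites in the 3′ untranslated region. The miR-29 family is known for targeting the DNA methyltransferases, the TET dioxygenases, MCL1 and many extracellular matrix genes. DNA methylation is one of the layers that keep fetal globin genes silent in adult red cells, together with repressors such as BCL11A and ZBTB7A, and the title of the series names DNMT3A as the target of MIR29B.

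The mature strand of mouse miR-29b-3p is shown first because its seed defines the sites counted below, with the 2 other family members that share it. Sequences are from RefSeq on GRCm38.p6, 5′ to 3′, with the seed in capitals. The miR-29b-3p strand is encoded at 2 loci, chr1:195037091-195037113 on the plus strand and chr6:31063025-31063047 on the minus strand. The chemical form of the delivered molecule is not given in the labels beyond a cholesterol modification named in the series title.
miR-29b-3p: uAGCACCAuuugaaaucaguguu
miR-29a-3p: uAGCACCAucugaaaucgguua
miR-29c-3p: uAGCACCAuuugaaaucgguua
The 3 strands share the seed AGCACCA. An 8-mer site is the stretch of a messenger RNA that pairs with the seed and is followed by an A, read here as TGGTGCTA on the transcript strand. It was found in the 3′ UTR of 629 of 21002 genes with an annotated 3′ UTR in GENCODE on GRCm38, and in 30 of the miR-29 targets listed from the literature. A match is a description of the letters and not evidence of repression. The sites of 4 genes described below are given with their flanks, site in capitals.
Dnmt3a, chr12:3911405-3911412, plus strand: ggggaggtagcTGGTGCTAgcacc
Mcl1, chr3:95661859-95661866, plus strand: agtcttaaccaTGGTGCTAttcac
Lamc1, chr1:153220068-153220075, minus strand: atctgacacacTGGTGCTAttaat
Tet1, chr10:62806042-62806049, minus strand: cttgaaggagaTGGTGCTAgctga
Dnmt3a carries 2 such sites, of which 1 is shown, and Mcl1, Lamc1 and Tet1 carry 1 each.

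The 3 mg/kg libraries held 23.76, 35.5 and 22.29 M counts, and the 2 mg/kg libraries 41.8, 45.65 and 24.32 M. Annotated ribosomal RNA took 0.97%, 0.66% and 0.72% of the counts over 1 transcript per gene at 3 mg/kg, against 0.83%, 7.3% and 4.55% at 2 mg/kg, so replicates 2 and 3 at 2 mg/kg stood apart. Entries with no gene symbol followed the same split, with 2.59%, 1.9% and 2.33% at 3 mg/kg and 2.44%, 14.5% and 8.84% at 2 mg/kg. Whether these entries hold ribosomal RNA was not tested, and the ribosomal shares above cover annotated entries only. Across genes, Spearman correlations between libraries of different doses ranged from 0.838 to 0.956, those within 3 mg/kg from 0.882 to 0.91 and those within 2 mg/kg from 0.871 to 0.956; genes are not independent replicates, and the ranges overlap. Eif2s3y, a Y-linked gene, had 0, 64.2 and 39.1 CPM at 3 mg/kg and 0, 61.0 and 19.5 CPM at 2 mg/kg. Ddx3y, also Y-linked, had 0, 12.2 and 8.15 CPM at 3 mg/kg and 0, 10.4 and 6.54 CPM at 2 mg/kg. Xist, the RNA of the inactive X chromosome, was at 7.28, 1.72 and 0 CPM at 3 mg/kg and at 19.8, 0.329 and 0 CPM at 2 mg/kg. Each dose therefore held 1 library, replicate 1, without Y-linked counts, and each held 2 with them.

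No gene passed the test between the doses. Of 11953 genes tested, 0 had a Benjamini-Hochberg adjusted p under 0.05 in edgeR's quasi-likelihood test (0.0%), and the smallest adjusted p was 0.339. At an unadjusted p under 0.05 there were 207 genes (1.73%), 58 higher at 3 mg/kg (0.485%) and 149 lower (1.25%). DESeq2's Wald test called 5, all lower at 3 mg/kg: the ribosomal RNA gene Rn28s1, the 7SL RNA genes Rn7s1 and Rn7s2, and 2 entries with no symbol. limma voom called 0. The levels of the 2 doses did not overlap for 318 genes higher at 3 mg/kg (2.66%) and 450 lower (3.76%), 768 in all (6.43%). The median log2 fold change over all genes was -0.02, and 6215 genes (52.0%) lay below 0. Data were simulated once per fold with this design and spread, with 200 genes of any level changed and no other difference between groups. Of genes changed 2-fold, 0% were recovered, of those changed 4-fold 31.5% and of those changed 8-fold 72.0%, with 0, 1 and 6 false calls. Unchanged genes there gave 491 to 574 with an unadjusted p under 0.05, more than the 207 here. The simulation thus differs from these data, and within it no 2-fold change was recovered.

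**Figure D1:**
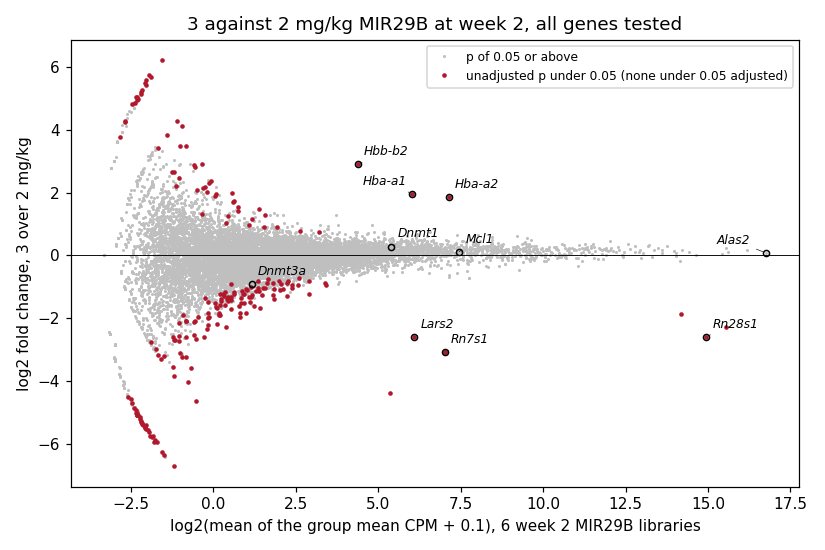
Log2 fold change of 3 over 2 mg/kg MIR29B at week 2 (vertical axis) against the log2 mean CPM of the 6 libraries plus 0.1 (horizontal axis) for the 11953 genes tested; red points are the 207 with an unadjusted p under 0.05, and none had an adjusted p under 0.05. Hbb-b2, Hba-a1 and Hba-a2 lie above the bulk of genes at their level, and Rn28s1, Rn7s1 and Lars2 lie below it.

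The gene named in the title as the target, Dnmt3a, a de novo DNA methyltransferase (chr12:3801559-3914443), did not pass the test. It had 0.56, 2.96 and 0.886 CPM in the 3 mg/kg libraries and 3.59, 3.94 and 0.935 CPM in the 2 mg/kg libraries. Replicates 1 and 2 at 2 mg/kg were the highest of the 6, replicate 3 at 2 mg/kg lay among the 3 mg/kg values, and the doses overlapped. The log2 fold change was -0.92 ± 0.75 (SE, n = 3 and 3; edgeR adjusted p = 1), with a 95% interval of the fold from 0.183 to 1.52. Leaving out single libraries gave -1.94 to -0.52, the lowest without 3 mg/kg replicate 2. The counts behind it were low, 80 over the 3 mg/kg libraries and 206 over the 2 mg/kg ones.

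The other methyltransferases and the TET enzymes gave no call either. Dnmt1, which copies methylation at replication, had 26.6, 76.5 and 35.3 CPM at 3 mg/kg and 44.1, 50.7 and 18.7 CPM at 2 mg/kg, with a log2 fold change of 0.28 ± 0.48. Dnmt3b, also a de novo enzyme, was near the detection limit at 0.56, 0.286 and 0 CPM at 3 mg/kg and 0.293, 0.986 and 0 CPM at 2 mg/kg. Tet1, which oxidises methylcytosine, was counted in 1 of the 6 libraries, at 0.859 CPM in replicate 2 of 3 mg/kg; its 18 counts set a fold of at least 8.32 over a floor of 3 counts summed over the 2 mg/kg libraries, or at least 4.16 by a floor of 6 since all counts are even, and it rests on that library. Tet2 and Tet3 had log2 fold changes of 0.16 ± 0.85 and 0.09 ± 0.38. Mbd2, which binds methylated DNA, was at 15.4, 16.2 and 14.0 CPM at 3 mg/kg and 19.3, 15.1 and 15.7 CPM at 2 mg/kg. Among 19 tested DNA methylation genes, 0 were called, 7 had a positive and 12 a negative log2 fold change, and the median was -0.21 against -0.02 for all genes.

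No other miR-29 target was called. Mcl1, an anti-apoptotic BCL2 relative, was at 184, 167 and 195 CPM at 3 mg/kg and 213, 169 and 122 CPM at 2 mg/kg, with a fold interval of 0.653 to 1.8. Lamc1, a laminin chain, was at 0.839, 1.34 and 0.177 CPM at 3 mg/kg and 1.61, 2.14 and 2.03 CPM at 2 mg/kg; the doses did not overlap, and the log2 fold change of -1.24 ± 0.65 did not pass (edgeR adjusted p = 1). It was the single literature target without overlap among 45 tested of 59 listed (3.76% of all genes lay wholly lower and 6.43% did not overlap in either direction), whose median was -0.08 with 19 positive and 26 negative. The 368 tested genes with an 8-mer site had a median of -0.06, with 158 positive and 210 negative, 3 without overlap and higher at 3 mg/kg (2.66% of all genes were) and 13 without overlap and lower (3.76% of all genes were). In the scrambled arm the same 2 lists had medians of 0.04 and -0.08 for 3 over 2 mg/kg, where no MIR29B was given.

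**Figure D2:**
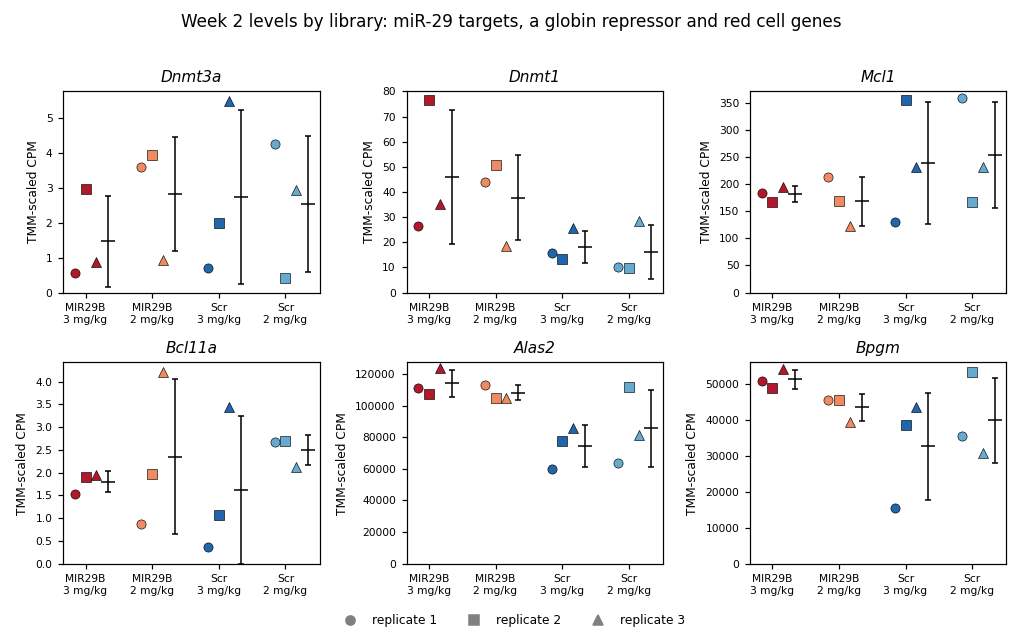
TMM-scaled CPM (vertical axes, from 0) of 6 genes in the 12 week 2 libraries; marker shapes give the replicate, and the dash and bar give mean and SD of 3 libraries, with bars ending at 0. Dnmt3a overlaps between the MIR29B doses, whereas Bpgm is at 49000 CPM or more in the 3 mg/kg libraries and at most 45700 CPM in the 2 mg/kg ones.

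Regulators of fetal globin were tested next. Bcl11a, a repressor of fetal globin genes, was at 1.54, 1.91 and 1.95 CPM at 3 mg/kg and 0.878, 1.97 and 4.21 CPM at 2 mg/kg, so its 2 mg/kg values lay on both sides of the 3 mg/kg ones. Zbtb7a, another repressor, had a log2 fold change of -0.32 ± 0.49. Myb, a progenitor factor that also holds down fetal globin, was counted in 1 of 3 libraries at 3 mg/kg, at 0.382 CPM, and at 0.512, 0.575 and 0.779 CPM at 2 mg/kg, without overlap. Eed, a Polycomb subunit, was at 2.8, 3.25 and 2.48 CPM at 3 mg/kg and 4.54, 4.44 and 4.52 CPM at 2 mg/kg, also without overlap, with a log2 fold change of -0.66 ± 0.36. Zfp410, an activator of the NuRD subunit CHD4, did not overlap either (-1.11 ± 0.57). None of the 3 passed the test. Klf1 and Gata1, the main erythroid factors, had log2 fold changes of 0.66 ± 0.60 and 0.10 ± 0.42. Over 46 tested fetal globin regulators 0 were called, 1 was higher and 5 lower without overlap (2.66% and 3.76% of all genes), and the median was -0.03.

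The cell type is labelled erythrocytes, and red cell genes were counted at high levels in all 6 libraries, beside markers of white cells and platelets described below. No red cell gene was called between the doses. Alas2, which starts erythroid heme synthesis, was at 111000, 107000 and 124000 CPM at 3 mg/kg and 113000, 105000 and 105000 CPM at 2 mg/kg. Its log2 fold change was 0.08 ± 0.32, with a fold interval of 0.67 to 1.67. Bpgm, which makes the 2,3-bisphosphoglycerate that lowers oxygen affinity, was at 50900, 49000 and 54200 CPM at 3 mg/kg and 45700, 45700 and 39400 CPM at 2 mg/kg. The doses did not overlap for Bpgm, yet its fold interval ran from 0.731 to 1.9. Bsg, the Ok blood group protein, had 837, 694 and 887 CPM at 3 mg/kg and 573, 689 and 640 CPM at 2 mg/kg, again without overlap and without a call. Among 23 heme synthesis genes, including Fech and Urod, 17 had a positive log2 fold change and the median was 0.18. The 32 membrane and blood group genes had a median of 0.18 with 26 positive, and the 46 genes of erythroid transcription and maturation a median of 0.17 with 33 positive. Without overlap, 1 heme synthesis gene was higher at 3 mg/kg and 1 lower, and 2 membrane and blood group genes were higher and 1 lower. Of the genes of erythroid transcription and maturation, 2 were higher and 0 lower (2.66% and 3.76% of all genes). Slc4a1, the band 3 anion exchanger, and Ank1, its cytoskeletal anchor, had log2 fold changes of 0.30 ± 0.55 and 0.39 ± 0.45. In the scrambled arm these 3 lists had medians of 0.48, 0.40 and 0.23 for the same dose contrast. Iron handling genes had a median of -0.02 over 18 tested; Tfrc, the transferrin receptor, and Ncoa4, the ferritinophagy receptor, had log2 fold changes of 0.14 ± 0.51 and 0.25 ± 0.35, and Slc11a2, an iron transporter, one of -0.80 ± 0.50.

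The adult mouse globin genes Hba-a1, Hba-a2 and Hbb-b2 had higher levels in every 3 mg/kg library than in any 2 mg/kg one, without passing the test. They were 3 of 9 mouse globin genes tested (2.66% of all genes were wholly higher), whose median log2 fold change was 0.15. Hba-x, also among the 9, had far higher levels, and its doses overlapped (log2 fold change 0.09 ± 0.59). It was at 12400, 8470 and 17700 CPM at 3 mg/kg and 7690, 8740 and 20000 CPM at 2 mg/kg. Hba-a1, an adult alpha globin gene (chr11:32283672-32284486), was at 109, 95.6 and 105 CPM at 3 mg/kg and 18.4, 10.8 and 50.8 CPM at 2 mg/kg. The 2 mg/kg replicate 3 was the nearest to the 3 mg/kg values. Its near-identical copy Hba-a2, named after its values were seen, was at 227, 195 and 238 CPM at 3 mg/kg and 38.6, 27.7 and 117 CPM at 2 mg/kg. Hbb-b2, an adult beta globin gene, was at 32.6, 30.7 and 46.2 CPM at 3 mg/kg and 3.22, 1.89 and 9.81 CPM at 2 mg/kg. The log2 fold changes were 1.96 ± 0.68, 1.85 ± 0.69 and 2.89 ± 0.91, and none passed the test (edgeR adjusted p = 1 each, unadjusted p = 0.00678, 0.0115 and 0.00312); without the filter on low counts, Hba-a1 and Hbb-b2 were called (edgeR adjusted p = 0.0382 and 2.41e-05). Without 2 mg/kg replicate 3 the log2 fold changes were 2.85, 2.76 and 3.86, the highest with any single library left out; the lowest were 1.59, 1.51 and 2.51, without 2 mg/kg replicate 2. Reads of near-identical globin copies may be split between them by the counting, globin mRNA was depleted before sequencing, and the adult mouse genes are replaced in this strain, so these counts do not by themselves show expression of the mouse genes; what they come from was not tested.

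At week 0 the values of these genes lay the other way between the doses of the MIR29B arm, again without passing the test; whether that blood was taken before dosing is not given in the sources used here. Hba-a1 had a median of 22.9 CPM, range 9.93 to 25.1, in the 3 mg/kg libraries of the MIR29B arm at week 0 and 67.8 CPM, range 43.8 to 92.2, in the 2 mg/kg ones. Hbb-b2 had a median of 4.11 CPM, range 1.56 to 6.42, at 3 mg/kg and 33.3 CPM, range 25.0 to 62.1, at 2 mg/kg. The week 0 log2 fold changes were -1.81 ± 0.68 and -3.32 ± 0.92, with edgeR adjusted p = 0.979 each. Without the filter on low counts, edgeR called 7 genes in this week 0 contrast, Hbb-b2 among them and Hba-a1 not. The difference between the week 2 and week 0 contrasts was 6.21 ± 1.30 for Hbb-b2 (edgeR adjusted p = 0.381), and DESeq2's Wald test called it as its single gene. Fitted to the groups of that contrast alone, edgeR also called Hbb-b2 as its single gene (edgeR adjusted p = 0.0299). Without the filter, edgeR called 3 genes in that difference, Hba-a1, Hba-a2 and Hbb-b2. The fit took the libraries of both weeks as independent, with no term for animals that may have been sampled at both. At week 4 the median levels of Hba-a1 and Hbb-b2 were lower at 3 mg/kg MIR29B, and that difference was not tested. Hba-a1 had a median of 28.2 CPM, range 17.3 to 51.7, in the 3 week 4 libraries at 3 mg/kg and 50.3 CPM, range 43.0 to 52.5, in the 3 at 2 mg/kg. Hbb-b2 had one of 2.66 CPM, range 1.97 to 6.9, at 3 mg/kg and 8.18 CPM, range 2.8 to 8.62, at 2 mg/kg, and the doses overlapped for both genes. In the scrambled arm at week 2, Hbb-b2 was at 17.9, 1.73 and 34.4 CPM at 3 mg/kg and 1.71, 7.94 and 5.08 CPM at 2 mg/kg. Libraries of that arm thus spread from 1.71 to 34.4 CPM, and its doses overlapped.

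The lowest p-values belonged to ribosomal and 7SL RNA. Rn28s1, the 28S ribosomal RNA, was at 10600, 7190 and 9290 CPM at 3 mg/kg and 8120, 95000 and 59200 CPM at 2 mg/kg, with a log2 fold change of -2.58 ± 0.57 (edgeR adjusted p = 0.339). Rn7s1, the RNA of the signal recognition particle, was at 36.1, 20.1 and 26.4 CPM at 3 mg/kg and 15.4, 463 and 214 CPM at 2 mg/kg; Rn7s2 held identical counts. Lars2, a mitochondrial leucyl-tRNA synthetase, was at 24.2, 14.3 and 19.5 CPM at 3 mg/kg and 14.6, 196 and 140 CPM at 2 mg/kg. In each case replicates 2 and 3 at 2 mg/kg were high, the same libraries that were high in ribosomal RNA, while replicate 1 at 2 mg/kg lay within or below the range of the 3 mg/kg values. Without those 2 libraries the log2 fold changes were 0.21, 0.89 and 0.46 in the opposite direction. Without replicate 1 at 2 mg/kg, edgeR called 6 entries, all lower at 3 mg/kg, Rn28s1, Rn7s1 and Lars2 among them.

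**Figure D3:**
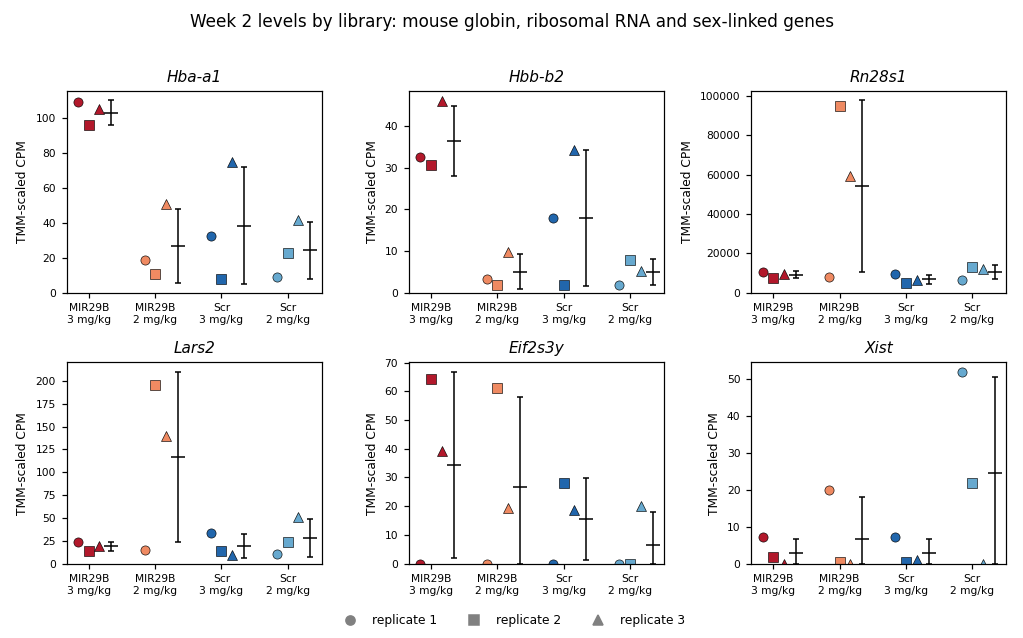
TMM-scaled CPM (vertical axes, from 0) of mouse globin, ribosomal RNA and sex-linked genes in the 12 week 2 libraries; marker shapes give the replicate, and the dash and bar give mean and SD of 3 libraries, with bars ending at 0. Hba-a1 and Hbb-b2 separate the MIR29B doses, and the high Rn28s1 and Lars2 values belong to replicates 2 and 3 of 2 mg/kg MIR29B.

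The other genes with the smallest p-values were of low level and mostly lower at 3 mg/kg. Rnase4, a secreted ribonuclease, had 0 counts at 3 mg/kg and 36 at 2 mg/kg, which makes it at least 8.66-fold lower by a floor of 3 counts summed over the 3 mg/kg libraries and at least 4.33-fold lower by a floor of 6. Ltk, a receptor tyrosine kinase, had 0 counts at 3 mg/kg and 40 at 2 mg/kg, at least 9.62-fold lower by the floor of 3 and at least 4.81-fold by that of 6. The floors cover counting error only. Plpp6, a lipid phosphatase, was at 1.12, 0.668 and 0.177 CPM at 3 mg/kg and 2.34, 2.38 and 3.12 CPM at 2 mg/kg. Gtf3a, the 5S ribosomal RNA transcription factor TFIIIA, was at 1.54, 0.859 and 0.886 CPM at 3 mg/kg and 1.83, 2.63 and 5.61 CPM at 2 mg/kg. Nxt2, Kcnk5, Wdr76 and the zinc finger gene Zfp992 also lay wholly lower at 3 mg/kg, with log2 fold changes from -4.61 to -1.94. Depdc1a, a gene of dividing cells, went the other way, with 0.979, 1.53 and 1.77 CPM at 3 mg/kg and 0.22, 0.411 and 0.156 CPM at 2 mg/kg. None of these genes passed the test.

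Markers of other blood cells were read as lists, and in bulk blood fewer cells of a type cannot be told apart from less RNA per cell. Neutrophil markers had a median log2 fold change of 0.42 over 34 tested, with 29 positive, 8 wholly higher at 3 mg/kg (2.66% of all genes were) and 0 called. Their summed level was 1466, 1412 and 2261 CPM at 3 mg/kg and 1374, 1187 and 1126 CPM at 2 mg/kg, with replicate 3 at 3 mg/kg the highest. S100a9, which forms calprotectin with S100a8, was at 344, 286 and 637 CPM at 3 mg/kg and 296, 260 and 288 CPM at 2 mg/kg. Ngp, a granule protein, was at 36.8, 23.1 and 50.8 CPM at 3 mg/kg and 20.9, 15.3 and 20.4 CPM at 2 mg/kg. Platelet markers had a median of 0.54 with 25 of 29 positive; Nrgn and Itga2b, the integrin αIIb chain, had log2 fold changes of 0.64 ± 0.47 and 0.38 ± 0.46. Without replicates 2 and 3 of 2 mg/kg, which leaves 1 library at that dose, the 2 medians were 0.21 and 0.61, and in the scrambled arm they were 0.25 and 0.63 for the same dose contrast.

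Lymphocyte and antigen presentation lists had medians below 0, and none of their genes was called. B cell markers had a median of -0.35 with 22 of 26 negative, and their summed level was 1041, 364.5 and 508.9 CPM at 3 mg/kg and 513.7, 492.7 and 1466 CPM at 2 mg/kg. The 13 MHC class II genes had a median of -0.46 with 12 negative and summed to 1372, 422.6 and 698.5 CPM at 3 mg/kg and 705.8, 621.2 and 2121 CPM at 2 mg/kg. Replicate 3 at 2 mg/kg was highest in both, and without replicates 2 and 3 of 2 mg/kg the medians were 0.12 and 0.26. T cell markers had a median of -0.18 over 27, NK cell markers -0.13 over 27 and monocyte and macrophage markers -0.19 over 34. In the scrambled arm the same dose contrast gave medians of -0.68 for B cell, -0.45 for T cell and -1.42 for NK cell markers. It gave -0.05 for MHC class II genes and 0.24 for monocyte and macrophage markers. Of the 34 monocyte and macrophage markers, 10 were positive and 24 negative. Without overlap, 0 were higher at 3 mg/kg and 1 lower (2.66% and 3.76% of all genes). That 1 was Adgre4, a monocyte receptor, at 7.14, 3.91 and 3.37 CPM at 3 mg/kg and 10.3, 7.64 and 7.17 CPM at 2 mg/kg. Cd14, of the same list, had a log2 fold change of 0.41 ± 0.55. It was at 137, 124 and 104 CPM at 3 mg/kg and 111, 111 and 52.2 CPM at 2 mg/kg.

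No gene of the signalling and housekeeping lists was called. Of 34 immediate early genes 3 lay wholly higher at 3 mg/kg (2.66% of all genes did), with a median of 0.14. Fos, an AP-1 subunit, was at 32.5, 22.1 and 21.6 CPM at 3 mg/kg and 14.7, 21.6 and 9.35 CPM at 2 mg/kg, and Zfp36, which destabilises cytokine mRNAs, at 101, 67.3 and 89.6 CPM at 3 mg/kg and 43.8, 58.7 and 65.3 CPM at 2 mg/kg. Nfkbib, an inhibitor of NF-kappa-B, averaged 11.5 ± 0.611 CPM at 3 mg/kg and 6.91 ± 2.83 CPM at 2 mg/kg (SD, n = 3 each), without overlap (log2 fold change 0.73 ± 0.36). The 71 type I interferon stimulated genes had a median of -0.06 with 46 negative, and 57 inflammatory genes one of 0.08. Heat shock chaperones had a median of 0.13 over 34 tested, with 4 wholly higher at 3 mg/kg and 3 wholly lower (2.66% and 3.76% of all genes). Hspa9, the mitochondrial HSP70, was among the lower ones, at 3.08, 6.97 and 6.02 CPM at 3 mg/kg, against 11.2, 7.39 and 9.5 CPM at 2 mg/kg (-0.80 ± 0.36). Cell cycle genes had a median of 0.14 over 65, with Plk1, a mitotic kinase, at 0.14, 0.191 and 1.24 CPM at 3 mg/kg and 0, 0.0821 and 0 CPM at 2 mg/kg. Ago4, an Argonaute that binds microRNAs, was at 1.54, 1.81 and 1.59 CPM at 3 mg/kg and 1.1, 0.329 and 0 CPM at 2 mg/kg, and the 32 genes of microRNA processing had a median of 0.02. Cytosolic ribosomal protein genes had a median of -0.06 over 83, and of 0.38 without replicates 2 and 3 of 2 mg/kg, where that of all genes was 0.04. The medians of the inflammatory and microRNA processing lists also changed sign there, at -0.19 and -0.06. With all libraries the median was 0.14 over 79 respiratory chain genes and 0.12 over 47 proteasome genes.

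**Figure D4:**
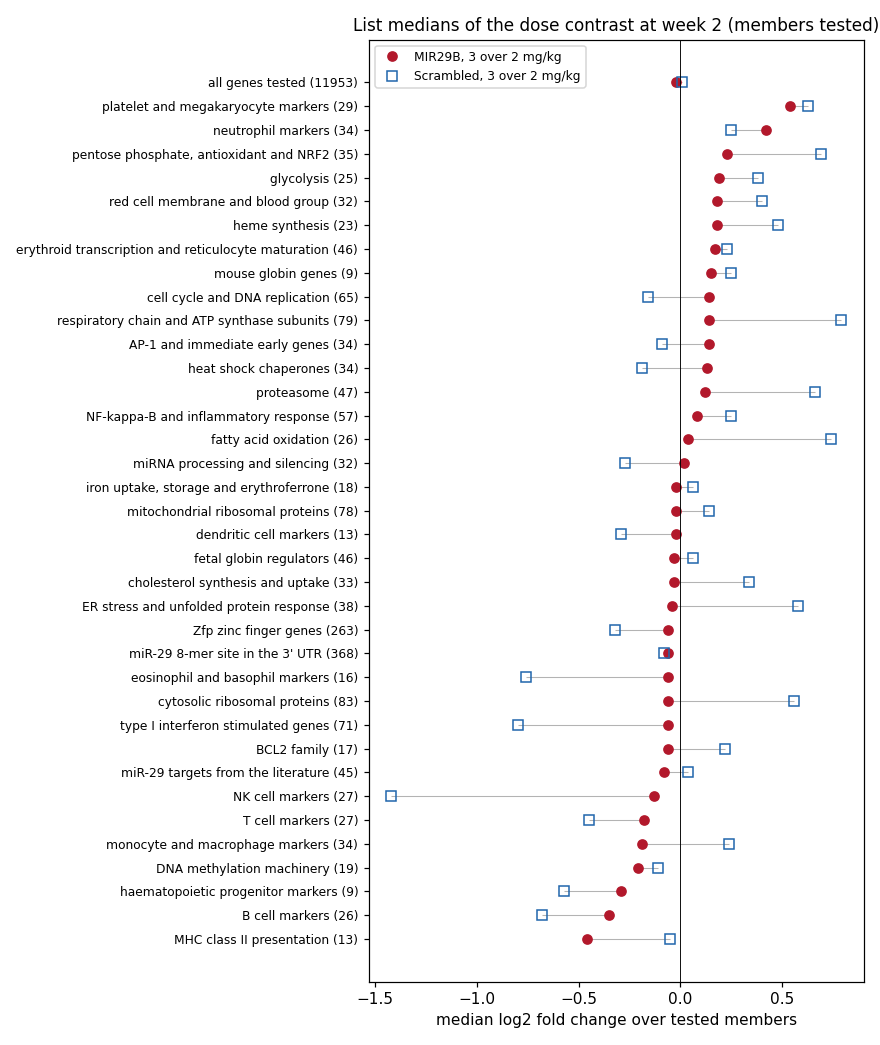
Median log2 fold change of 3 over 2 mg/kg at week 2 over the tested members of each list, sex-linked genes left out (horizontal axis), filled for the MIR29B arm and open for the scrambled arm, with the number tested in brackets. In the MIR29B arm the medians lie between -0.46 and 0.54, and in the scrambled arm between -1.42 and 0.79.

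The scrambled arm gives the dose contrast without MIR29B. Beside the 207 genes with an unadjusted p under 0.05 in the MIR29B arm (1.73%), the scrambled arm had 1494 (12.5%), and 5 genes were called there (0.0418%); that count ran from 0 to 118 when single libraries were left out, and was 0 with limma voom and 281 with DESeq2's Wald test. With only the groups of each contrast fitted, the unadjusted counts were 302 of 10224 genes tested in the scrambled arm and 94 of 9753 under MIR29B. The coefficients of variation between libraries were then 0.662 and 0.446, against 0.5 with all 12 groups. The scrambled doses differed in Y-linked counts, unlike the MIR29B doses. Eif2s3y was at 0 CPM in 1 of 3 libraries at 3 mg/kg scrambled and in 2 of 3 at 2 mg/kg scrambled. The part of this difference in the scrambled counts was not tested. Erfe, the erythroblast hormone that lowers hepcidin, was at 1.96, 1.53 and 2.3 CPM at 3 mg/kg MIR29B and 2.56, 1.15 and 0.156 CPM at 2 mg/kg MIR29B. In the scrambled arm, where it was called, Erfe was at 12.2, 0.597 and 1.38 CPM at 3 mg/kg and 0.0569, 0 and 0 CPM at 2 mg/kg. Zfp825, a zinc finger gene, was at 5.6, 9.55 and 9.74 CPM at 3 mg/kg MIR29B and 8.56, 8.87 and 7.32 CPM at 2 mg/kg MIR29B, against 3.09, 3.45 and 3.44 CPM at 3 mg/kg scrambled and 8.65, 32.8 and 12.6 CPM at 2 mg/kg scrambled, where it was called lower. Dkc1, the pseudouridine synthase dyskerin, was the other called gene that was lower at 3 mg/kg scrambled, and Ndufa10 and Xpnpep1 the others that were higher. Under MIR29B their log2 fold changes were -0.20 ± 0.48, 0.31 ± 0.36 and 0.31 ± 0.40.

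The difference between the arms in the dose contrast was tested directly and called 0 genes in edgeR (0.0%), with 688 at an unadjusted p under 0.05 (5.76%), and 0 in DESeq2 and in limma voom. The smallest p-values were those of Zfp825, with a difference of 2.44 ± 0.56, Acaa2, a thiolase of fatty acid oxidation, with -2.52 ± 0.60, and Erfe, with -6.51 ± 1.59 (edgeR adjusted p = 0.637 each). Acaa2 was at 2.66, 1.91 and 4.07 CPM at 3 mg/kg MIR29B and 3.0, 4.44 and 6.39 CPM at 2 mg/kg MIR29B, against 16.2, 6.7 and 7.35 CPM at 3 mg/kg scrambled and 4.55, 2.55 and 1.15 CPM at 2 mg/kg scrambled. The contrast of the MIR29B arm at week 0 called 0 genes, with 475 at an unadjusted p under 0.05 (3.97%), and the difference between weeks called 0, with 412 (3.45%).

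**Figure D5:**
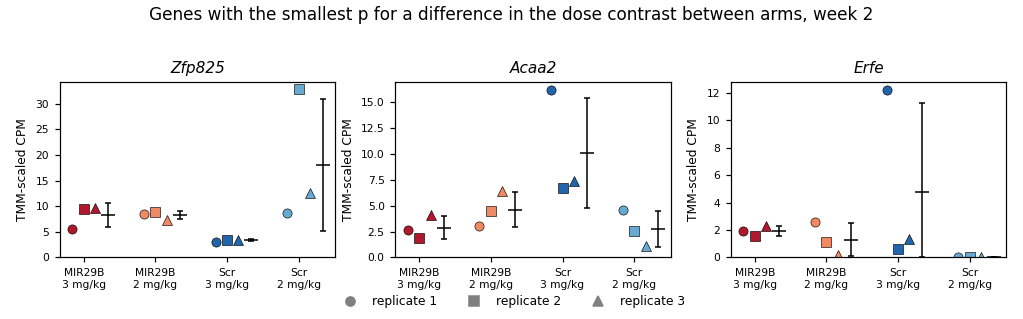
TMM-scaled CPM (vertical axes, from 0) of Zfp825, Acaa2 and Erfe in the 12 week 2 libraries; marker shapes give the replicate, and the dash and bar give mean and SD of 3 libraries, with bars ending at 0. The MIR29B doses overlap for all 3 genes, while the scrambled doses do not.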

How the data were processed

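RNA from 36 globin-depleted blood libraries had been sequenced. HISAT2 2.0.5 and featureCounts 1.5.0-p3 are listed, with the build GRCm38, in the submitters' processing notes; strand handling is not given in the sources used here. The deposited table holds the authors' raw counts for 25856 transcripts, all even (0 odd values). Symbols were matched through RefSeq (25650) or GENCODE (132), 74 entries had none, and the transcript with the highest total stood for each of 16812 genes. edgeR 4.0.16 in R 4.3.3 (filterByExpr, minimum count 10, total 15; TMM) fitted 12 groups over 36 libraries, and 11953 genes had a two-sided F test by quasi-likelihood, with calls at 0.05 after Benjamini-Hochberg adjustment. The coefficient of variation between libraries was 0.5. Levels are TMM-scaled CPM, and SE is the log2 fold change over the square root of F. Alternatives used DESeq2 1.42.0 and limma 3.58.1. A rule gave 174 genes for naming: the smallest p of all genes, the smallest p and highest level per list, and fixed genes; those described are a subset, and some are not reported here. Members and lists were chosen with earlier results of these data known. The code was tested on simulated data.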

Additional observations from a re-analysis of the deposited data

How the results depend on the processing

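The count of 0 genes called between the MIR29B doses held with DESeq2 size factors, summed transcripts, counts divided by 2, limma voom and the groups of the contrast alone. It held without the 1 library over 5% ribosomal RNA, 2 mg/kg replicate 2, which is the same fit as leaving out that replicate. Replicate 3 at 2 mg/kg, with 4.55%, stayed in. The count also held with ribosomal, 7SL and no-symbol entries left out, a setting chosen after seeing the data. It was also 0 without replicates 2 and 3 of 2 mg/kg, but that arm then has 1 library, assumed to vary like the other groups, so this count says nothing about stability. It was 7 without the filter and 5 with DESeq2's Wald test, and 0 to 6 when each library was left out, with 6 without 2 mg/kg replicate 1; the causes were not tested. The scrambled count of 5 became 250 without the filter, 281 with DESeq2's Wald test and 3 with summed transcripts. It was 2 without the library over 5% ribosomal RNA, and 0 with limma voom or with the groups of the contrast alone. Over left-out libraries it ran from 0 to 118. The difference between arms gave 20 without the filter and 0 to 3 over left-out libraries, week 0 gave 7 without the filter, and the difference between weeks gave 3 without the filter, 1 with DESeq2's Wald test and 1 with the groups of the contrast alone. The labels do not say what a replicate number is, so the numbers were not taken to pair the libraries. Same-numbered libraries of the MIR29B doses had correlations of their deviations of -0.06, 0.39 and 0.29. Replicates 2 and 3 correlated best with their own number and replicate 1 did not, a hint from the data alone. With the replicate block 0 genes were called between the MIR29B doses (199 at an unadjusted p under 0.05, 207 without), and 4 in the scrambled arm.

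Of 92 genes tried under 17 alternatives, 18 changed direction and 70 kept their direction wherever a value was given. The other 4 (Alas2, Hells, Hsp90b1 and Tet1) came to a log2 fold change of 0.00 in at least 1. Of the 70, 8 had no value in 1 or 2 alternatives. Among the 17, leaving out the library over 5% ribosomal RNA and leaving out 2 mg/kg replicate 2 are the same fit. Leaving out 1 library moved the fold of 30 of the 92 by over 1.5 times. Over left-out libraries, the log2 fold change ran from -0.76 to 0.37 for Bcl11a, -0.45 to 1.1 for Ddx3y, -0.41 to 0.11 for Dkc1, -0.25 to 0.58 for Dnmt1, -1.43 to 0.84 for Dnmt3b, -0.42 to 1.83 for Eif2s3y, -0.04 to 0.25 for Gata1, -0.04 to 0.33 for Mcl1, -0.52 to 0.71 for Tet2, -0.18 to 0.3 for Tet3, -0.18 to 0.44 for Tfrc, -2.82 to 3.89 for Xist, -0.7 to 0.04 for Zbtb7a and -0.14 to 0.25 for Zfp825. Without replicates 2 and 3 of 2 mg/kg it was 1.08 for Bcl11a, 0.02 for Dnmt3b, -0.36 for Erfe, 0.46 for Lars2, -0.17 for Mcl1, 0.21 for Rn28s1, 0.89 for Rn7s1, -0.37 for Tet2 and -0.08 for Tet3, and it was 10.07 for Ddx3y, 12.41 for Eif2s3y and -0.81 for Zbtb7a, whose direction was kept there. Without the library over 5% ribosomal RNA, 2 mg/kg replicate 2, it was 0.84 for Dnmt3b and 0.11 for Dkc1. With limma voom it was 0.08 for Bcl11a, -0.79 for Tet2 and -0.04 for Zfp825, with summed transcripts 0.17 for Bcl11a, and with the replicate block -0.19 for Tet2, 0.18 for Xist and -0.03 for Zfp825. Erfe, Rn28s1, Rn7s1 and Lars2 kept their direction over single left-out libraries, at 0.08 to 1.5, -3.09 to -1.9, -3.61 to -2.06 and -3.11 to -1.99. Depth limits low-level genes: Dnmt3a rests on 80 and 206 counts.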
